A study of Mus musculus with 6 samples.

Results

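The genes described here are 10 genes that neutrophil precursors switch on late in their maturation: *S100a8*, *S100a9*, *Camp*, *Ltf*, *Ngp*, *Lcn2*, *Mmp8*, *Mmp9*, *Chi3l3* (current symbol *Chil3*) and *Cybb*. They were taken by symbol from a table of 36976 genes, and each symbol had 1 row. RNA-Seq of LT-CML stem cells, the most primitive leukaemic cells of chronic myelogenous leukaemia (CML), compared *Gdpd3*+/+ and *Gdpd3*-/- mice to ask what loss of the lysophospholipase D Gdpd3 changes in these cells. All 6 libraries came from tet-CML mice (*SCL-tTA* with *TRE-BCR-ABL1*) on a C57BL/6 background, in which the *SCL* enhancer drives the tTA activator in blood-forming cells and withdrawal of doxycycline (Dox) at 5 weeks of age switches on BCR-ABL1. Cells were taken 5 weeks after that induction and sorted from bone marrow as CD150+CD48-CD135- cells of the Lineage-Sca-1+cKit+ gate, where the lineage cocktail holds Gr-1 and Mac1, surface proteins of neutrophils. There were 3 *Gdpd3*+/+ libraries (replicates 1, 2 and 3) and 3 *Gdpd3*-/- libraries (replicates 5, 6 and 7), and the *Gdpd3*-/- allele is a germline Cas9 deletion of 5 bp in the coding sequence. The *Gdpd3*+/+ RNA came from 22 males and 12 females and the *Gdpd3*-/- RNA from 5 males and 5 females, so libraries pooled mice, and the difference in the share of males cannot be told apart from genotype.

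Neutrophils fill their granules in sequence as they mature in the marrow. Primary granules, with myeloperoxidase and elastase, are made at the promyelocyte stage, whereas secondary granules, with lactoferrin, cathelicidin and lipocalin 2, follow at the myelocyte stage under the transcription factor C/EBPε, and gelatinase granules come last. The S100A8 and S100A9 calcium-binding proteins pair to form calprotectin, which makes up much of the neutrophil cytosol, and *Cybb* encodes the catalytic subunit of the phagocyte NADPH oxidase. In CML, BCR-ABL1 drives an excess of cells along this granulocyte path.

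Values are FPKM, fragments per kilobase of gene scaled to the library total, as the authors deposited them, and all genes were compared in limma on log2(FPKM + 0.1). *Gdpd3* itself was at 7.30, 3.29 and 2.95 FPKM in *Gdpd3*+/+ replicates 1, 2 and 3 and at 0.110, 0.0129 and 0.681 FPKM in *Gdpd3*-/- replicates 5, 6 and 7. Depth on genes, recovered from the FPKM steps, was 49753146 to 62762437 fragments in the *Gdpd3*+/+ libraries and 21334716 to 36421439 fragments in the *Gdpd3*-/- libraries. The summed FPKM of 10 skeletal muscle markers was 898 to 1328 in *Gdpd3*+/+ and 11576, 16662 and 2209.9 in *Gdpd3*-/- replicates 5, 6 and 7, so *Gdpd3*-/- replicates 5 and 6 stood apart and values without them are given below. The summed FPKM of 7 B and plasma cell markers was 36553 to 39776 in *Gdpd3*+/+ and 9402 to 19353 in *Gdpd3*-/-. Among 24689 genes tested, an adjusted p under 0.05 was reached by 152 genes lower in *Gdpd3*-/- (0.616%) and 270 genes higher (1.09%), and the median log2 fold change over all of them was 0.24. With scaling by the trimmed mean of M values the split was 232 lower and 118 higher with a median of 0.06, and with quantile normalization it was 206 lower and 119 higher with a median of -0.01.

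All 10 late granule and S100 genes were detected in every library, with 631 fragments or more for each gene in each library, and all 10 passed the filter for testing. In 9 of the 10 genes the 3 *Gdpd3*-/- libraries all lay below the 3 *Gdpd3*+/+ libraries, and the exception was *Mmp8*. Over all genes tested, 8.27% were lower without overlap in this way and 23.5% were higher without overlap. *Camp*, *Ltf*, *Ngp* and *Cybb* fell with an adjusted p under 0.05 in limma, 4 of 10 against the 0.616% of all genes that were lower. All 10 log2 fold changes were negative, and their median was -1.62, which is 1.86 below the median of all genes. The list took 1.65% to 1.96% of all fragments in the *Gdpd3*+/+ libraries and 0.938%, 0.429% and 0.497% in *Gdpd3*-/- replicates 5, 6 and 7. For bulk RNA, fewer cells with these transcripts and less of them per cell cannot be told apart.

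**Figure D1:**
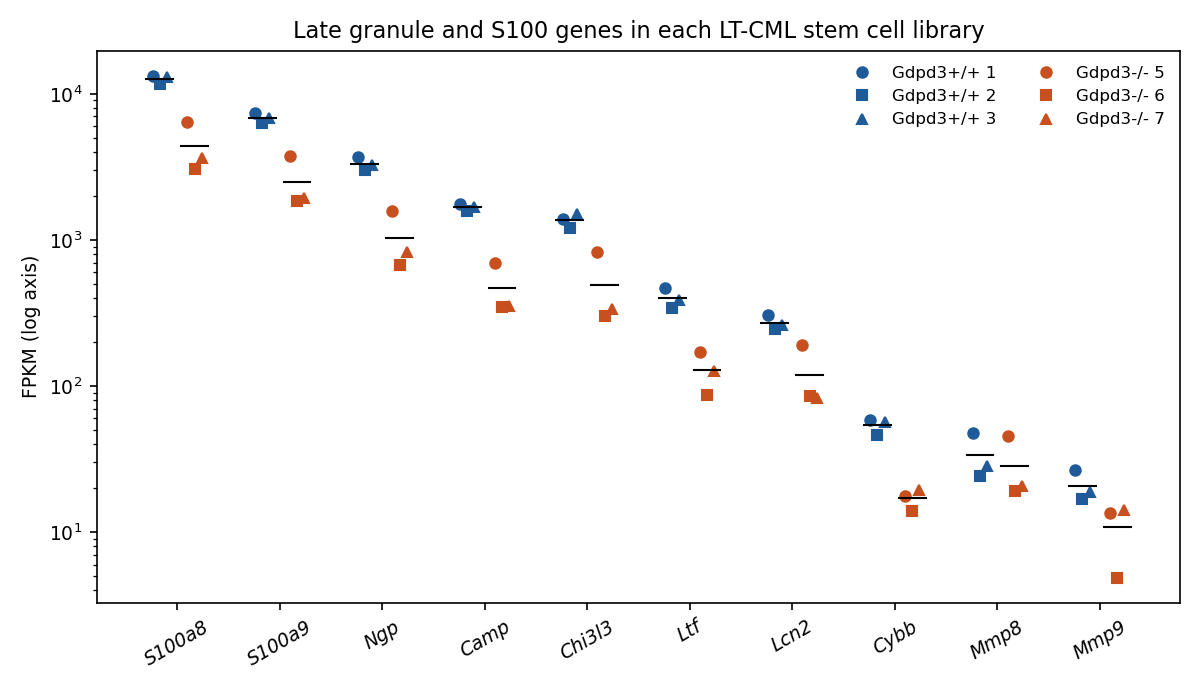
FPKM (log axis) of the 10 late granule and S100 genes in each of the 3 Gdpd3+/+ (blue) and 3 Gdpd3-/- (orange) libraries, with a black bar at each group mean. The groups are apart for 9 genes and overlap for Mmp8, and Gdpd3-/- replicate 5 is the highest Gdpd3-/- library in 8 of 10 genes.

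The S100 alarmin genes were the most abundant of the group. *S100a8* (ENSMUSG00000056054.8, mm9 chr3:90472993-90473956, plus strand) was at 13261, 11686 and 12963 FPKM in *Gdpd3*+/+ replicates 1, 2 and 3 and at 6441, 3059.7 and 3609 FPKM in *Gdpd3*-/- replicates 5, 6 and 7. The groups were well apart, and the lowest *Gdpd3*+/+ library stood at 181% of the highest *Gdpd3*-/- library. By mean FPKM, *S100a8* ranked 9 of 36976 genes in *Gdpd3*+/+ and 15 in *Gdpd3*-/- cells. Group means were 12637 ± 837 against 4370.0 ± 1815 FPKM (SD, n = 3 each). The log2 fold change was -1.61 with a standard error (SE) of 0.30, and the adjusted p = 0.0570 in limma missed the threshold.

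*S100a9* (ENSMUSG00000056071.6, mm9 chr3:90496554-90499643, minus strand), the partner of *S100a8* and its neighbour on the chromosome, was at 7416, 6301 and 6858 FPKM in *Gdpd3*+/+ and at 3739, 1845 and 1935 FPKM in *Gdpd3*-/- replicates 5, 6 and 7. It kept the same order of libraries as *S100a8* in *Gdpd3*-/-, with replicate 5 highest and replicate 6 lowest. Its log2 fold change was -1.53 with an SE of 0.29 (adjusted p = 0.0585 in limma). The ratio of *S100a8* to *S100a9* FPKM was 1.79 to 1.89 in the *Gdpd3*+/+ libraries and 1.66 to 1.86 in the *Gdpd3*-/- libraries, so the partners moved together in level. Both passed the threshold without *Gdpd3*-/- replicate 5 (adjusted p = 0.0392 for *S100a8* and 0.0291 for *S100a9* in limma) and under scaling by the trimmed mean of M values (0.0480 and 0.0489 in limma).

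To show the sequence next to which these transcripts start, 250 bases upstream of the start are printed for the S100 pair, 5′ to 3′ on the strand of the gene, from RefSeq on GRCm38.p6. The *S100a8* window is chr3:90668821-90669070 on the plus strand and the *S100a9* window is chr3:90695722-90695971 on the minus strand. Capitals mark the letters TTGCNNAA, a core that C/EBP factors bind, and GAGGAA, a core that the ETS factor PU.1 binds, searched on both strands without overlap between them in these windows.
S100a8: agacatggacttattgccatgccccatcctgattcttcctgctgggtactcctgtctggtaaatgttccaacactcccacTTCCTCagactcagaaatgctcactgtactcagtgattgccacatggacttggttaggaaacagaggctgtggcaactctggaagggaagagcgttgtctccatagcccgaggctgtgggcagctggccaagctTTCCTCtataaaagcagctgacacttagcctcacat
S100a9: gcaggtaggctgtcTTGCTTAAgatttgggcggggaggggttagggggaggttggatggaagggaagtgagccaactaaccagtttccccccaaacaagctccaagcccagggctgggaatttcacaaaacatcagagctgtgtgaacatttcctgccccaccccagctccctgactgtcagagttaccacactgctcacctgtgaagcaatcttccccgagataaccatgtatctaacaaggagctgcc
*S100a8* held the PU.1 letters, on the opposite strand, from positions -170 and -36 relative to the start, and *S100a9* held the C/EBP letters from position -236. RefSeq promoters were found for 9 of the 10 genes, all but *Mmp9*. The C/EBP letters were in 5 of these 9 windows (*S100a9*, *Ltf*, *Ngp*, *Lcn2* and *Mmp8*) and in 9.56% of all 32851 promoters, and the PU.1 letters were in 4 of 9 (*S100a8*, *Ltf*, *Lcn2* and *Mmp8*) and in 23.3% of all promoters. A match is a description of letters and not a binding site.

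Of the secondary granule genes, *Camp*, *Ltf* and *Ngp* fell. *Camp* (ENSMUSG00000038357.7, mm9 chr9:109749889-109751970, minus strand), which encodes the cathelicidin antimicrobial peptide, was at 1771, 1589 and 1669 FPKM in *Gdpd3*+/+ and at 697, 349 and 352 FPKM in *Gdpd3*-/- replicates 5, 6 and 7. The highest *Gdpd3*-/- library was well below the lowest *Gdpd3*+/+ library. With a mean of 1676 ± 91.4 FPKM (SD, n = 3) against 466 ± 200 (SD, n = 3), the log2 fold change was -1.93 with an SE of 0.27 (adjusted p = 0.0334 in limma), the lowest of the 10 genes.

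*Ngp*, the neutrophilic granule protein and a cystatin-like relative of *Camp* (ENSMUSG00000032484.6, mm9 chr9:110322254-110325514, plus strand), was the third most abundant of the group, with 3711, 3019 and 3256 FPKM in *Gdpd3*+/+ and 1569, 673 and 826 FPKM in *Gdpd3*-/- replicates 5, 6 and 7. *Gdpd3*-/- replicate 5 again stood highest within its group. The log2 fold change was -1.80 with an SE of 0.31, and the adjusted p = 0.0492 in limma was close to the threshold.

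*Ltf* (ENSMUSG00000032496.3, mm9 chr9:110921796-110945270, plus strand) encodes lactoferrin, the iron-binding protein that defines secondary granules. Its FPKM was 469, 343 and 389 in *Gdpd3*+/+ and 172, 87.2 and 127 in *Gdpd3*-/- replicates 5, 6 and 7. The groups did not overlap, and the log2 fold change was -1.68 with an SE of 0.25 (adjusted p = 0.0374 in limma). The RefSeq upstream windows (GRCm38.p6) of these 3 genes are chr9:109849457-109849706 on the minus strand for *Camp*, chr9:110419558-110419807 on the plus strand for *Ngp* and chr9:111019042-111019291 on the plus strand for *Ltf*, with the same letters in capitals.
Camp: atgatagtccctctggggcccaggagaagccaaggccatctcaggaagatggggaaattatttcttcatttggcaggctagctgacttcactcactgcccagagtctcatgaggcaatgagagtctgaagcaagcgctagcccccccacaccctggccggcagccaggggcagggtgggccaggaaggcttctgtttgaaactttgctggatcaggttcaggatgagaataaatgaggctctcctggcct
Ngp: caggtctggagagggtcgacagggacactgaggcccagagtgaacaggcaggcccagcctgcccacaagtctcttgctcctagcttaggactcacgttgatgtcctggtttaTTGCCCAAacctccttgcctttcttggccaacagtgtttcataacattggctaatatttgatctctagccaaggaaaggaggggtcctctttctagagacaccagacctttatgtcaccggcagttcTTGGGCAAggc
Ltf: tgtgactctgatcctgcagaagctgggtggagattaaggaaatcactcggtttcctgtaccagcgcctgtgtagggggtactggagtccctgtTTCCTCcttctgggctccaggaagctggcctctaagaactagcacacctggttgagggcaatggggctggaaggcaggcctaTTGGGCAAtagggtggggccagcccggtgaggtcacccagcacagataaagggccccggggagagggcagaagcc
*Ngp* held the C/EBP letters from positions -138 and -11, on opposite strands, and *Ltf* held them from position -75 with the PU.1 letters from position -157. *Camp*, the gene with the lowest fold change, held neither in this window.

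*Lcn2* (ENSMUSG00000026822.9, mm9 chr2:32240153-32243317, minus strand) encodes lipocalin 2, which binds bacterial siderophores. It was at 304, 247 and 262 FPKM in *Gdpd3*+/+ and at 190, 85.9 and 83.3 FPKM in *Gdpd3*-/- replicates 5, 6 and 7. The gap was narrow here, since the lowest *Gdpd3*+/+ library stood at 130% of *Gdpd3*-/- replicate 5. The log2 fold change was -1.29 with an SE of 0.32 (adjusted p = 0.0895 in limma), and without *Gdpd3*-/- replicate 5 it was -1.67 (adjusted p = 0.0230 in limma).

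*Chi3l3* (ENSMUSG00000040809.9, mm9 chr3:105950472-106022425, minus strand) encodes Ym1, a chitinase-like lectin of neutrophils and alternatively activated macrophages. It was at 1398, 1206 and 1508 FPKM in *Gdpd3*+/+ and at 826, 303 and 335 FPKM in *Gdpd3*-/- replicates 5, 6 and 7. Replicate 5 held 60.2% of the *Gdpd3*+/+ mean and replicates 6 and 7 held 22.1% and 24.5%. With this spread the log2 fold change was -1.64 with an SE of 0.37 (adjusted p = 0.0807 in limma), and without *Gdpd3*-/- replicate 5 the adjusted p was 0.0213 in limma. *Chi3l3* shares 68 exonic bases with its paralog *Chi3l4*, so how fragments were split between them is uncertain.

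The collagenase and gelatinase genes, which were the least abundant in *Gdpd3*+/+ cells, did not follow the others in full. *Mmp8*, neutrophil collagenase (ENSMUSG00000005800.2, mm9 chr9:7558429-7568486, plus strand), was at 47.9, 24.1 and 28.5 FPKM in *Gdpd3*+/+ and at 45.8, 19.2 and 20.7 FPKM in *Gdpd3*-/- replicates 5, 6 and 7. *Gdpd3*-/- replicate 5 was above 2 of the 3 *Gdpd3*+/+ libraries, and the groups overlapped. The log2 fold change was -0.29 with a 95% interval of -1.23 to 0.66 (adjusted p = 0.672 in limma). Relative to *Camp*, *Mmp8* was higher in *Gdpd3*-/- cells, with an FPKM ratio of 0.0152 to 0.0270 in the *Gdpd3*+/+ libraries and 0.0549 to 0.0657 in the *Gdpd3*-/- libraries.

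*Mmp9*, gelatinase B of the late gelatinase granules (ENSMUSG00000017737.2, mm9 chr2:164766280-164781350, plus strand), was at 26.5, 16.8 and 18.8 FPKM in *Gdpd3*+/+ and at 13.4, 4.90 and 14.2 FPKM in *Gdpd3*-/- replicates 5, 6 and 7. The groups did not overlap, but *Gdpd3*-/- replicate 7 lay close under the lowest *Gdpd3*+/+ library, and *Gdpd3*-/- replicate 6 was far below both others. The log2 fold change was -1.04 with a 95% interval of -2.06 to -0.03 (adjusted p = 0.215 in limma).

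**Figure D2:**
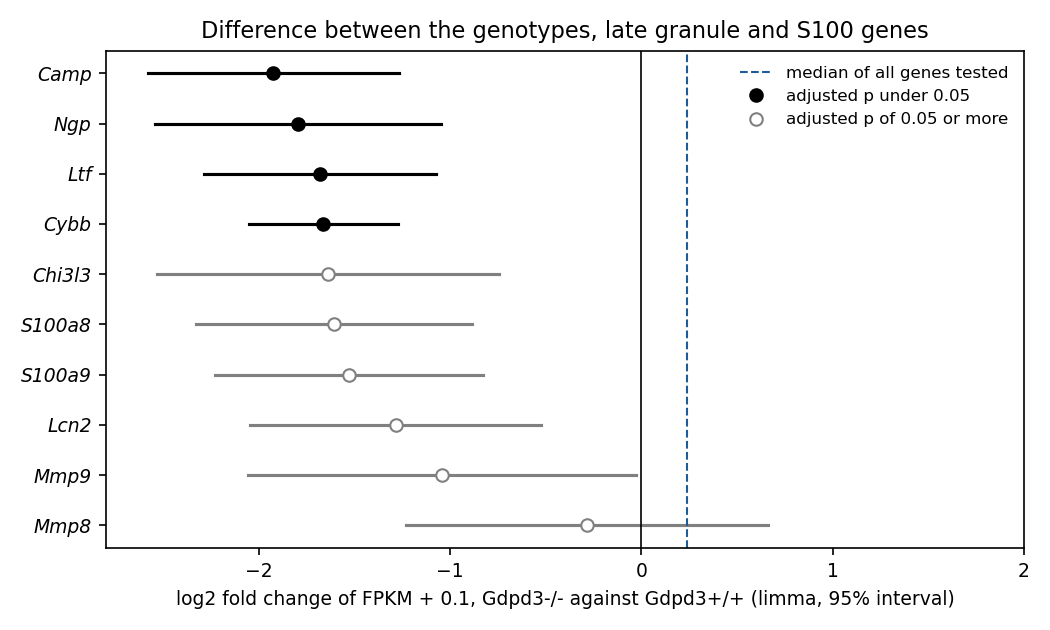
Log2 fold change of each gene, Gdpd3-/- against Gdpd3+/+, on the log2(FPKM + 0.1) scale, with its 95% interval from limma. Filled points are the 4 genes with an adjusted p under 0.05, and the dashed line is the median of all genes tested at 0.24. Only the interval of Mmp8 reaches above 0.

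*Cybb* (ENSMUSG00000015340.4, mm9 chrX:9012378-9064897, minus strand) encodes gp91phox, the catalytic subunit of the NADPH oxidase that makes superoxide in phagocytes. It fell from 58.9, 46.6 and 56.6 FPKM in *Gdpd3*+/+ to 17.7, 13.9 and 19.6 FPKM in *Gdpd3*-/- replicates 5, 6 and 7. *Cybb* had the tightest *Gdpd3*-/- group of the 10 genes, with a coefficient of variation of 16.9% against 32.8% or more for the others. Its log2 fold change was -1.66 with an SE of 0.16 (adjusted p = 0.0171 in limma), and it was the gene called in most alternatives, 14 of 18.

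The other NADPH oxidase subunits were lower by different amounts. Of 5 genes, 2 fell and none rose by an adjusted p under 0.05 in limma, against 0.616% and 1.09% of all genes tested. These were the cytosolic organisers *Ncf1* (p47phox, 61.2 ± 1.71 to 24.3 ± 1.82 FPKM, SD, n = 3 each, log2 fold change -1.33, adjusted p = 0.00678 in limma) and *Ncf4* (p40phox, log2 fold change -1.05, adjusted p = 0.0454 in limma). *Cyba*, the membrane partner of gp91phox, was at 205, 209 and 224 FPKM in *Gdpd3*+/+ and at 151, 157 and 152 in *Gdpd3*-/- cells (log2 fold change -0.47, adjusted p = 0.0519 in limma). The FPKM ratio of *Cybb* to *Cyba* was 0.223 to 0.288 in the *Gdpd3*+/+ libraries and 0.0889 to 0.129 in the *Gdpd3*-/- libraries. *Rac2*, the GTPase that activates the complex, overlapped between the groups with a log2 fold change of -0.19 (adjusted p = 0.361 in limma).

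Within each genotype most of the 10 genes followed 1 order of libraries. Of the *Gdpd3*+/+ libraries, replicate 1 was the highest for 9 of 10 genes and replicate 2 the lowest for all 10. Of the *Gdpd3*-/- libraries, replicate 5 was the highest for 8 of 10 and replicate 6 the lowest for 9 of 10. Taken as a share of the *Gdpd3*+/+ mean, the median over the genes was 52.7%, 23.9% and 29.6% in *Gdpd3*-/- replicates 5, 6 and 7. The *Gdpd3*+/+ libraries differed less, at 89.3% to 110% of their own mean. As a description over the 6 libraries, Pearson's r between a gene and the mean of the other members' standardised log2 values was 0.975 or more for *S100a8*, *S100a9*, *Camp*, *Ltf*, *Ngp*, *Lcn2* and *Chi3l3*, and was 0.906 for *Cybb*, 0.834 for *Mmp9* and 0.591 for *Mmp8*. These points share the genotype difference and the depth of their libraries.

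The primary granule genes are made earlier in the same lineage. Of these, 6 of 7 were also lower without overlap in *Gdpd3*-/-, against 8.27% of all genes tested, but with another order of libraries. *Ctsc*, the protease that activates the granule serine proteases, ran the other way, with 24.4 ± 1.89 FPKM against 32.7 ± 6.95 (SD, n = 3 each), a log2 fold change of 0.40 and an adjusted p = 0.217 in limma. Of the 7 genes, 4 fell and none rose by an adjusted p under 0.05 in limma, against 0.616% and 1.09% of all genes tested. The 4 were *Elane* (neutrophil elastase, log2 fold change -1.87, adjusted p = 0.0477 in limma), *Prtn3* (proteinase 3, -1.01, 0.0315), *Prss57* (-0.99, 0.0336) and *Ms4a3* (-1.77, 0.0233). *Mpo*, the most abundant beside *Elane*, was at 1889, 2175 and 2040.1 FPKM in *Gdpd3*+/+ and at 287, 695 and 800.5 FPKM in *Gdpd3*-/- replicates 5, 6 and 7. *Gdpd3*-/- replicate 5 was the lowest *Gdpd3*-/- library for 6 of 7 primary granule genes, all but *Ctsc*. As a median it held 20.9% of the *Gdpd3*+/+ mean of the primary granule genes, against 42.2% in replicate 6 and 45.6% in replicate 7. The ratio of *Camp* to *Mpo* FPKM was therefore 2.43 in *Gdpd3*-/- replicate 5, against 0.503 and 0.440 in replicates 6 and 7 and 0.730 to 0.938 in the *Gdpd3*+/+ libraries. With 1 library showing it, this order has no replicate check.

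**Figure D3:**
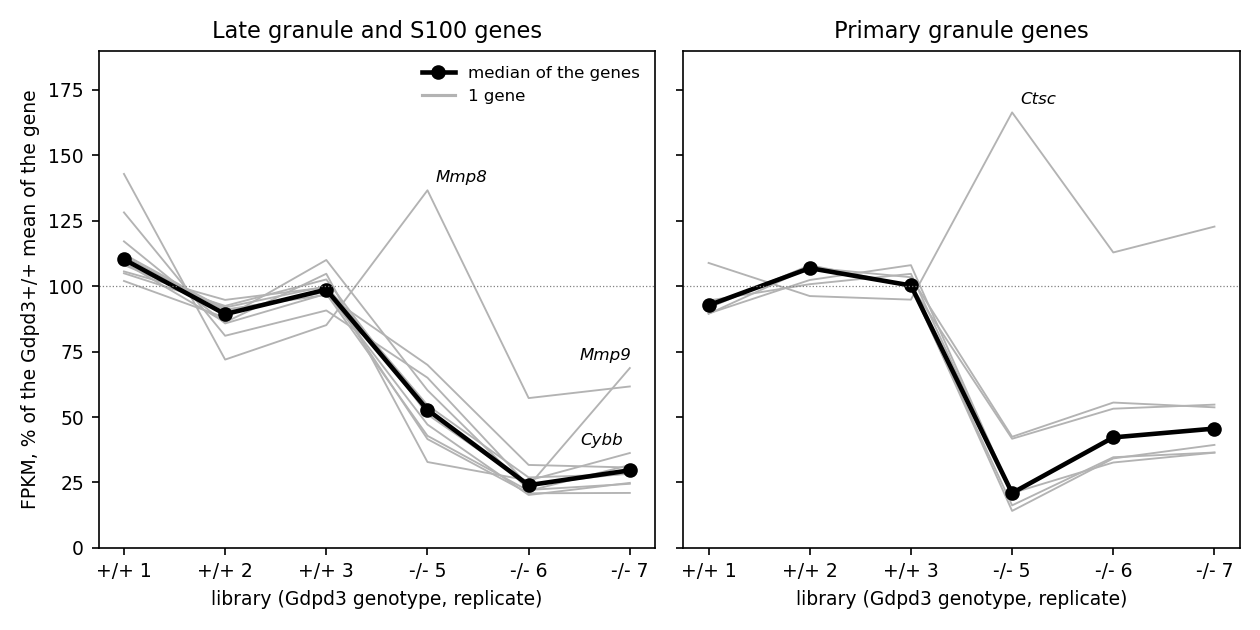
FPKM of each gene in each library as a percentage of the Gdpd3+/+ mean of that gene, for the 10 late granule and S100 genes (left) and 7 primary granule genes (right), with the median of each list in black. Lines only join the values of 1 gene, since replicates have no order. Gdpd3-/- replicate 5 holds a median of 52.7% for the late genes and 20.9% for the primary granule genes.

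Among 32 other genes of late neutrophil maturation, 31 were tested, 8 fell and none rose, with a median log2 fold change of -0.86. Of all genes tested, 0.616% fell and 1.09% rose by an adjusted p under 0.05 in limma. Without overlap, 15 of the 31 were lower and 2 higher, against 8.27% and 23.5% of all genes. The genes that fell included *Trem3*, a myeloid receptor (117 ± 8.32 to 37.0 ± 3.66 FPKM, SD, n = 3 each, log2 fold change -1.66, adjusted p = 0.00562 in limma), and *Hp*, haptoglobin (191 ± 3.36 to 80.9 ± 2.05 FPKM, SD, n = 3 each, log2 fold change -1.24, adjusted p = 0.00562 in limma). *Olfm4*, a secondary granule protein, had the lowest log2 fold change of them at -4.14 and was at 6.04 to 9.77 FPKM in the *Gdpd3*+/+ libraries and at 0.109, 0.182 and 1.18 FPKM in *Gdpd3*-/- replicates 5, 6 and 7 (adjusted p = 0.0470 in limma). *Pglyrp1*, the peptidoglycan recognition protein of neutrophil granules, *Cd177*, *Itgb2l*, *Anxa1* and *1100001G20Rik* (*Wfdc21*) were the other genes that fell, with log2 fold changes of -1.03 to -2.08. The most abundant of the list, *Slpi*, a protease inhibitor (1557 ± 263 and 558 ± 227 FPKM, SD, n = 3 each, adjusted p = 0.0586 in limma), and *Lyz2*, lysozyme (1175 ± 126 and 1023 ± 149 FPKM, SD, n = 3 each, adjusted p = 0.460 in limma), were not called.

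The other S100 genes did not follow *S100a8* and *S100a9*. Of 14 genes, 13 were tested, 1 rose, none fell, and the median log2 fold change was 0.50, above the 0.24 of all genes. Of all genes tested, 1.09% rose and 0.616% fell. Without overlap, 5 of the 13 were higher and none lower, against 23.5% and 8.27% of all genes. *S100a10*, the annexin A2 partner, rose from 51.9 ± 2.92 to 110 ± 11.2 FPKM (SD, n = 3 each, log2 fold change 1.08, adjusted p = 0.0177 in limma). No other S100 gene, *S100a8* and *S100a9* included, passed the threshold. *S100a11*, the most abundant of them, was at 292, 310 and 312 FPKM in *Gdpd3*+/+ and at 402, 237 and 280.0 FPKM in *Gdpd3*-/- replicates 5, 6 and 7. *S100a1* was at 106 to 110 FPKM in *Gdpd3*+/+ and at 257, 340 and 121 FPKM in *Gdpd3*-/- replicates 5, 6 and 7, higher in the 2 libraries with the highest skeletal muscle markers. The *S100a8* to *S100a6* ratio was 155 to 157 in the *Gdpd3*+/+ libraries and 28.1 to 45.5 in the *Gdpd3*-/- libraries.

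Of 10 transcription factors of the granulocyte lineage, *Cebpe* fell and none rose by an adjusted p under 0.05 in limma. Over all genes tested, 0.616% fell and 1.09% rose. Without overlap, 3 of the 10 were lower (*Cebpe*, *Cebpd* and *Klf5*) and 2 higher (*Cebpb* and *Irf8*), against 8.27% and 23.5% of all genes. *Cebpe*, which encodes the factor of the secondary granule stage, was at 13.02, 15.5 and 13.5 FPKM in *Gdpd3*+/+ and at 4.54, 4.01 and 5.37 FPKM in *Gdpd3*-/- replicates 5, 6 and 7 (log2 fold change -1.58 with an SE of 0.16, adjusted p = 0.0197 in limma). The groups were far apart, and *Gdpd3*-/- replicate 5 did not stand above the others for *Cebpe*. *Sfpi1* (*Spi1*, PU.1) overlapped between the groups, at 36.8 ± 1.48 and 40.7 ± 7.75 FPKM (SD, n = 3 each). *Cebpb*, the factor of emergency granulopoiesis, was at 33.7 ± 1.99 and 43.7 ± 3.26 FPKM (SD, n = 3 each, adjusted p = 0.108 in limma).

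Of 11 receptors, partners and inhibitors of the proteins encoded by the late genes, none passed an adjusted p under 0.05 in limma, with 2 at an unadjusted p under 0.05 in the same test. The most abundant were *Timp2*, an inhibitor of matrix metalloproteinases, at 17.4 ± 0.587 and 16.7 ± 6.28 FPKM (SD, n = 3 each), and *Mmp14*, at 15.8 ± 2.28 and 14.6 ± 6.03 FPKM (SD, n = 3 each). *Tlr4*, a receptor of S100A8 and S100A9, was at 3.28 to 5.14 FPKM in *Gdpd3*+/+ and at 6.82, 0.0148 and 4.59 FPKM in *Gdpd3*-/- replicates 5, 6 and 7, and was named after its values were seen.

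**Figure D4:**
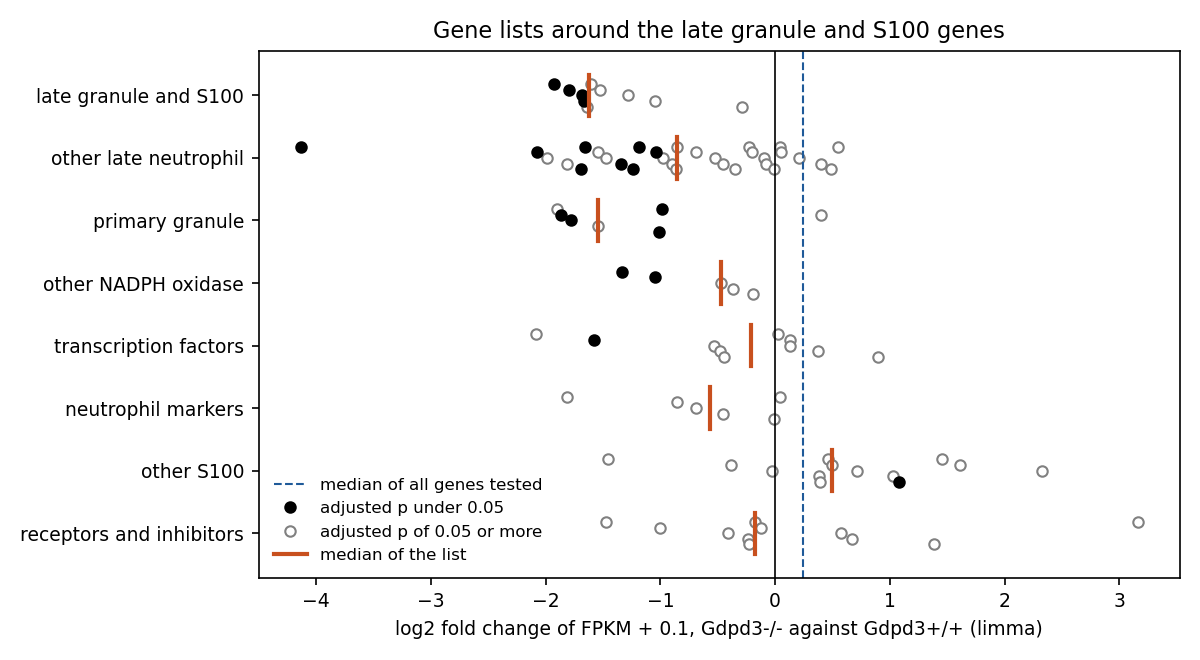
Log2 fold change of every tested gene in 8 lists, Gdpd3-/- against Gdpd3+/+, on the log2(FPKM + 0.1) scale from limma. Filled points have an adjusted p under 0.05, orange bars are list medians and the dashed line is the median of all genes at 0.24. The late granule and S100 genes have a median of -1.62, the primary granule genes -1.54 and the other S100 genes 0.50. All 6 neutrophil markers are also in the other late neutrophil list.

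Markers of the cell types that the sort could hold were read beside these results. Defining neutrophil markers were present, and of 6 none passed an adjusted p under 0.05 in limma, with 1 at an unadjusted p under 0.05. All 6 were also counted among the 32 other late neutrophil genes above, so they are not a separate set. Their median log2 fold change was -0.57, against 0.24 over all genes. Their summed FPKM was 402 to 652 in the *Gdpd3*+/+ and 295 to 457 in the *Gdpd3*-/- libraries. *Retnlg*, expressed in mature neutrophils, was at 540, 320.3 and 378 FPKM in *Gdpd3*+/+ and at 379, 213 and 316 FPKM in *Gdpd3*-/- replicates 5, 6 and 7, and *Csf3r*, the G-CSF receptor, was at 32.2 to 38.2 and 31.3 to 43.1 FPKM. *Ly6g*, 1 of the Gr-1 antigens the sort removes, was at 19.0 to 44.2 FPKM in *Gdpd3*+/+ and at 23.6 to 40.6 FPKM in *Gdpd3*-/- libraries. Of the 6 markers, all but *Itgam* overlapped between the genotypes. *Itgam*, which encodes Mac1, was at 19.3 to 22.3 FPKM in *Gdpd3*+/+ and at 13.4, 1.69 and 8.43 FPKM in *Gdpd3*-/- replicates 5, 6 and 7 (adjusted p = 0.193 in limma).

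Stem cell markers were expressed in every library, with *Ly6a* (Sca-1) at 342 to 410 FPKM in *Gdpd3*+/+ and 360 to 563 in *Gdpd3*-/- libraries. Of 10 stem cell markers *Cd34* rose (109 ± 3.38 to 201 ± 18.1 FPKM, SD, n = 3 each, log2 fold change 0.88, adjusted p = 0.0204 in limma) and none fell. Of the genes whose products the sort excludes, *Flt3* (CD135) rose from 10.5 ± 0.617 to 40.4 ± 5.31 FPKM (SD, n = 3 each, log2 fold change 1.93, adjusted p = 0.00562 in limma). The most abundant of that list, *Cd48* at 41.9 ± 2.58 and 65.9 ± 22.8 FPKM and *Ptprc* at 51.4 ± 3.10 and 44.9 ± 7.08 FPKM (SD, n = 3 each), were not called. *Ptprc* encodes CD45, and the sort excludes only its B220 form, which FPKM of the whole gene does not separate. *Ly6c2*, of monocytes and their precursors, fell from 1752 ± 38.0 to 588 ± 131 FPKM (SD, n = 3 each, log2 fold change -1.60, adjusted p = 0.0222 in limma), and *Cd68*, of macrophages, was at 23.5 ± 3.43 and 36.7 ± 12.3 FPKM (SD, n = 3 each). Of 10 eosinophil, basophil and mast cell markers, 6 were lower and 2 higher without overlap, against 8.27% and 23.5% of all genes tested. Their median log2 fold change was -1.06. *Cpa3*, a mast cell protease, rose (adjusted p = 0.0483 in limma). *Prg2* and *Ear1*, eosinophil granule genes, were at 1832 ± 195 and 733 ± 382 and at 474 ± 99.7 and 169 ± 136 FPKM (SD, n = 3 each). Their log2 fold changes were -1.49 and -1.96, without passing the threshold. No marker of the erythroid, T and NK cell, B and plasma cell, megakaryocyte or skeletal muscle lists passed an adjusted p under 0.05 in limma, with 17 of 37 tested at an unadjusted p under 0.05. Of these 17, 10 were skeletal muscle markers. In the same fit 5493 of all 24689 genes were at an unadjusted p under 0.05 in limma. All 10 skeletal muscle markers were higher without overlap, led by *Acta1* at 272 ± 63.1 and 2687 ± 2005 FPKM and *Tnnc2* at 217 ± 46.2 and 2073 ± 1483 FPKM (SD, n = 3 each). In the B and plasma cell list *Ighm*, the IgM heavy chain, was at 36223 ± 1483 and 13018 ± 4564 FPKM and *Igj* at 2199 ± 312 and 1163 ± 458 FPKM (SD, n = 3 each). Haemoglobin genes overlapped, with *Hba-a1* at 1013 ± 274 and 740.1 ± 412 FPKM and *Hbb-b1* at 896 ± 255 and 768 ± 391 FPKM (SD, n = 3 each), as did the platelet genes *Pf4* and *Itga2b*. The T and NK cell markers were low, with *Trbc2* and *Klrb1c* the highest at 1.19 ± 0.286 and 5.04 ± 2.40 and at 2.33 ± 0.507 and 1.46 ± 0.676 FPKM (SD, n = 3 each). The part of other cell types in the levels of the late granule and S100 genes was not tested.

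With *Gdpd3*-/- replicates 5 and 6 left out, *Gdpd3*-/- replicate 7, the library with the lowest muscle markers of its group, was below every *Gdpd3*+/+ library for all 10 genes. With 1 library against 3 this is easier to reach than with 3 against 3, and its share over all genes was not computed. In limma with this lone library assumed to vary like the *Gdpd3*+/+ libraries, 6 of the 10 genes were called, and 1.77% of all genes were called as lower, against 0.616% with all libraries. Scaling to the genes other than immunoglobulin genes left a median log2 fold change of -1.74, against 0.135 over all genes. It left 3 calls, against 154 of 24689 genes called as lower, with *Ngp* at an adjusted p = 0.0502 in limma. Limma voom on the recovered fragments called 8 of the 10 genes, all but *Mmp8* and *Mmp9*, and 0.940% of all genes as lower. In limma without any 1 *Gdpd3*+/+ library, no late granule or S100 gene passed the threshold. In these fits 8 of 10 were still at an unadjusted p under 0.05. The loss of calls was general, with 0, 1 and 21 genes of all tested called without *Gdpd3*+/+ replicate 1, 2 and 3. An unadjusted p under 0.05 was reached there by 3356 of 24887, 3525 of 24855 and 3238 of 24862 genes in limma.

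Genes with the most similar pattern were looked up among the 9631 genes that averaged 5 FPKM or more, by Pearson's r over the 6 libraries with the mean of the members' standardised log2(FPKM + 0.1) values. The 8 highest were *Gm684* (r = 0.994), *Sqrdl* (0.993), *Cd74* (0.992), *Nsl1* (0.991), *Cd177* (0.989), *Ikbkg* (0.985), *Slc35a3* (0.984) and *Tmem30a* (0.984). Of these, *Gm684* and *Cd177* were lower by amounts like those of the members, at 20.4 and 6.64 and at 81.0 and 26.0 mean FPKM in *Gdpd3*+/+ and *Gdpd3*-/-. The other 6 had a similar pattern over the libraries with smaller differences, such as 283 and 229 mean FPKM for *Cd74*, the invariant chain of MHC class II. An r above 0.95 was reached by 0.550% of the genes compared.

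Genes next to the members on the chromosome were read in the same fit. *Camp*, *Ngp* and *Ltf* lie within a stretch of chromosome 9 (mm9 chr9:109749889-110945270) that holds 34 other listed genes, of which 18 averaged 1 FPKM or more. Their median log2 fold change was 0.07, and 1 of the 18 had every *Gdpd3*-/- library lower. By limma none was called, with 4 of 18 at an unadjusted p under 0.05. Within 500 kb of *S100a8* and *S100a9* on chromosome 3, 18 other genes at that level had a median of 0.41, and none was called in limma, with 8 of 18 at an unadjusted p under 0.05.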

How the data were processed

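RNA-Seq (SMART-Seq v4 with Nextera XT, which keeps no strand, paired reads of 150 bases) was analysed for 6 libraries, each labelled with its genotype. The submitters' processing notes name STAR 2.6.1a, featureCounts 1.6.1 and mm9, and the authors deposited FPKM values for 36976 genes. Their table of a comparison between the genotypes (fold changes and p-values) was not used. FPKM times gene length fell on whole steps in 100% of values, taken as 0.01 fragment each, and 47.2% to 55.2% of values above 0 were whole fragments. How mice were divided among libraries is not given in the sources used here, so p-values measure the spread between these libraries.

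The 24689 genes averaging 0.05 FPKM or more were compared on log2(FPKM + 0.1) in limma (version 3.58.1, R 4.3.3) with its mean-variance trend and genotype as the only term. Benjamini-Hochberg adjustment ran over all of them, and the script was tested on simulated data. Fold changes on this scale understate those of low genes. Two-sided exact permutation tests of 3 libraries against 3 (SciPy 1.17.1) cannot go below p = 0.1, and 9 of the 10 genes reached it while *Mmp8* gave p = 0.5. That value is reached when the groups do not overlap, so it repeats the count without overlap. Of all genes tested, 8.27% were lower and 23.5% higher without overlap. The genes and lists were chosen with earlier results of these data known. All 10 genes are named, and from each other list those with an adjusted p under 0.05 and the 2 with the highest mean FPKM. Other genes were named after their values were seen. As alternatives, each library was left out in turn, the pseudocount was set to 0.01 or 1, the filter was dropped or raised to 1 FPKM, the libraries were rescaled by the trimmed mean of M values (30% of M and 5% of A values trimmed) or by quantiles, and the fit was run with array weights or without the trend. Added after seeing the data were voom on the fragments, scaling without immunoglobulin genes, with or without muscle marker and mitochondrial genes left out too, and leaving out *Gdpd3*-/- replicates 5 and 6.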

Additional observations from a re-analysis of the deposited data

How the results depend on the processing

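The log2 fold changes kept their sign in every alternative except for *Mmp8*, which lay between -0.68 (*Gdpd3*-/- replicate 5 left out) and 0.0034 (*Gdpd3*+/+ replicate 1 left out). The number of the 10 genes called by limma was 4, and it was 2 with a pseudocount of 1, 1 without a filter, 0 without the intensity trend (8 at an unadjusted p under 0.05), 8 with voom on the fragments, and 0 to 8 with 1 library left out. It was 0 without any 1 *Gdpd3*+/+ library, 2 without *Gdpd3*-/- replicate 6, 6 without replicate 7 and 8 without replicate 5, and the cause was not tested. The number of the 10 with no overlap between the groups was 9, and it was 9 or 10 with 1 library left out. That number could not fall, since leaving out a library cannot make separate groups overlap. Over all genes 422 were called, against 225 with a pseudocount of 1, 213 without a filter, 673 with a mean FPKM of at least 1, 153 without the trend, 240 with array weights, 903 with voom, 280 when scaled without immunoglobulin genes, 2294 without *Gdpd3*-/- replicates 5 and 6, and 0 to 3413 with 1 library left out (the 0 came from leaving out *Gdpd3*+/+ replicate 1, and 3356 of its unadjusted p-values were under 0.05, while the 3413 came from leaving out *Gdpd3*-/- replicate 7). The count without *Gdpd3*-/- replicates 5 and 6 rests on the spread of the *Gdpd3*+/+ libraries alone, so no conclusion is drawn from it. No paired analysis was possible because the genotypes share no replicate number.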
